A study of Mus musculus with 38 samples.

Results

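The distal part of mouse chromosome 12 from 103000001 to 119000000 (GRCm38), a stretch of 16 Mb, was examined in ChIP-seq data of 5 histone modifications. It was chosen by a measured value, the lower input DNA reads of the IκBα-KO cells in the H3K4me1 and H3K27ac experiment, so that the input of this experiment is a description here and not a finding. Its members were all regions called as enriched within these bounds, 9150 of the 1433733 calls of the 30 ChIP lists (0.638%), and no call crossed either bound. The rest of chromosome 12, with 47878 calls, was the reference.

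The cells were ES-E14TG2a, a mouse embryonic stem cell (mESC) line, grown in medium with serum and leukaemia inhibitory factor (Serum/LIF) and sampled at 0 h. In IκBα-KO cells, Nfkbia, the gene for the NF-κB inhibitor IκBα, had been cut by CRISPR-Cas9 with a pair of guide RNAs to the first exon, and IκBα-WT cells had received scrambled guides that target nothing. The series held 38 samples, of which 30 were ChIP libraries (3 IκBα-WT and 3 IκBα-KO for each modification) and 8 were inputs, sequenced DNA that was not immunoprecipitated. Replicates of a genotype were separate clones, as the methods describe the lines. Each genotype had a single input per experiment, and H3K27ac and H3K4me1 shared theirs, so input values have no replicate spread. Nfkbia itself lies outside the stretch, at 55489410 to 55492647, and H3K27ac calls covered 8238 bp of its body and upstream window in all 6 libraries, so the calls did not check the knockout. Of 7 markers of mESCs, 5 had an H3K4me3 call and 6 an H3K27ac call at the promoter in all 6 libraries, and Esrrb had neither. The same counts were 3 and 3 of 4 neural, 1 and 2 of 5 fibroblast, 0 and 2 of 4 primitive endoderm and 1 and 2 of 4 trophoblast markers. These 2 marks thus told the cell types apart only in part. H3K27me3 was called at the promoter in all 6 libraries at 1 of the 7 mESC markers, Esrrb. For the other types it was 4 of 4 neural, 4 of 5 fibroblast, 4 of 4 primitive endoderm and 3 of 4 trophoblast markers.

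H3K4me3 marks active promoters, H3K27ac active promoters and enhancers, and H3K4me1 enhancers, while H3K27me3 is laid down by Polycomb repressive complex 2 at silent developmental genes and H3K9me3 marks heterochromatin and silenced repeats. An input library reports how much DNA of each place was in the sample. A peak caller accepts a region where ChIP reads exceed a background, in which the input enters, past a threshold of significance. The ratio of ChIP to input alone therefore does not decide a call. The stretch holds the Dlk1-Dio3 imprinted domain, whose genes are active from one parental chromosome and whose control region lies upstream of the non-coding gene Meg3, as well as the serpin cluster and, near the end of the chromosome, the immunoglobulin heavy chain segments. In bulk samples, fewer copies of a sequence, fewer cells that carry it and a lower yield per copy cannot be told apart.

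Sequences are shown for 4 regions that stood apart in the results that follow, taken from the RefSeq GRCm38 assembly on the plus strand, with each CG dinucleotide in capitals. CG reads the same on both strands. Among 53333 consecutive windows of 300 bases in the stretch, the median held 2 CG. The first region is the centre of the H3K4me3 region with the largest fall among those past the test, at chr12:108757672-108757971, intergenic and 3876 bp from Gm33682, with 21 CG (0.589% of windows held at least as many).
Gm33682 H3K4me3 region: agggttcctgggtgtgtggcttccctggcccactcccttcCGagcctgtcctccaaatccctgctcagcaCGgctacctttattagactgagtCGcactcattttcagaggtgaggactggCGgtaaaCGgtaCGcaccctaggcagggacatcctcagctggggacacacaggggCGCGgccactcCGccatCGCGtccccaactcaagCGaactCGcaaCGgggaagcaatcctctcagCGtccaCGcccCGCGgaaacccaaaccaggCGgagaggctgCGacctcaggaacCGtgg
The next is the centre of the H3K4me3 region with the largest rise, upstream of Meg3 at chr12:109528011-109528310, with 10 CG (3.57% of windows).
Meg3 upstream H3K4me3 region: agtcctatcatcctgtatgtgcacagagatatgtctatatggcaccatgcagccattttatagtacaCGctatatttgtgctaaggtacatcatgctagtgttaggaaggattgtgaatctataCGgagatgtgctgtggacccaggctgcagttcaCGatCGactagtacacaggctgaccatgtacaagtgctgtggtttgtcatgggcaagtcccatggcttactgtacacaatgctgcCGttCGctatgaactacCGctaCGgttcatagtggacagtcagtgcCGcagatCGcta
The only region called in every IκBα-KO library and in no IκBα-WT library was an H3K4me3 region of 292 bp at chr12:109947151-109947442, intergenic and 33633 bp from 4930511J24Rik, with 2 CG.
IκBα-KO H3K4me3 region: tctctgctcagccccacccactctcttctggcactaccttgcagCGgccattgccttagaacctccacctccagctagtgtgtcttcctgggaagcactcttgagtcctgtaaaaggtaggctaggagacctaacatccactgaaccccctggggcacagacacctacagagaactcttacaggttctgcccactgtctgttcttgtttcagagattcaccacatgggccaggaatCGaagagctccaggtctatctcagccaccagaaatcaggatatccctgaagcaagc
The last is an H3K9me3 region of 200 bp at chr12:109907601-109907800, intergenic and 3985 bp from 4930511J24Rik, all of it soft-masked as repeat, with 4 CG.
H3K9me3 region: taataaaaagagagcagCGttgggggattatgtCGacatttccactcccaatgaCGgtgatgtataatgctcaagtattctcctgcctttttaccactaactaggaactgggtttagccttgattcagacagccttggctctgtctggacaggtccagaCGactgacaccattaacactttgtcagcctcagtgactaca
Of these, only the first was CG-rich beyond 1% of the windows, and none overlapped an annotated exon.

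The input of the other 2 experiments, which played no part in choosing the stretch, was lowered there too. In windows of 1 Mb, reads of the input per called kb were taken as log2 IκBα-KO over IκBα-WT, and set against the rest of chromosome 12. In the H3K27me3 experiment the median of 14 windows was −0.94, which is 51.9% of IκBα-WT, and the windows ran from −1.09 to −0.87. In the H3K9me3 experiment the median of 16 windows was −0.83, or 56.3% of IκBα-WT, with windows from −1.14 to −0.58. Proximal of the stretch, the 61 and 88 windows with over 20 kb called in both genotypes had SDs of 0.06 and 0.10 and went no lower than −0.13 and −0.29, above every window of the stretch. In the shared input of the other experiment the medians were −0.96 over H3K27ac calls and −0.92 over H3K4me1 calls. One window departed from this, 114000001 to 115000000 in the immunoglobulin segments, where the input over H3K4me1 calls was 0.02, but these calls covered only 13.1 kb in IκBα-WT and 2.67 kb in IκBα-KO, and the input over H3K27ac calls in that window was −0.71.

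The bounds of the rule did not coincide with the place where the input changed. In windows of 100 kb, input over H3K4me1 calls was −0.02 at 102700001 to 102800000, −1.15 at 102800001 to 102900000 and −0.84 at 102900001 to 103000000. The H3K27me3 experiment gave −1.24 and −0.93 in the last 2 of these windows, and the H3K9me3 experiment gave −1.15 in the middle one. Just inside the bound, IκBα-KO had no H3K4me1 and no H3K27me3 call up to 103200000, and the next H3K27me3 window stood at −0.89. At the distal end, input over H3K9me3 calls was −1.17 at 118900001 to 119000000 and −0.79 in the window beyond it. The lowered level went on to the last called base of the chromosome, 120029000, with −0.97 for H3K9me3 and −1.03 for H3K27me3 at 119000001 to 120000000. The rest of chromosome 12 thus contained a little lowered sequence on both sides.

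**Figure D1:**
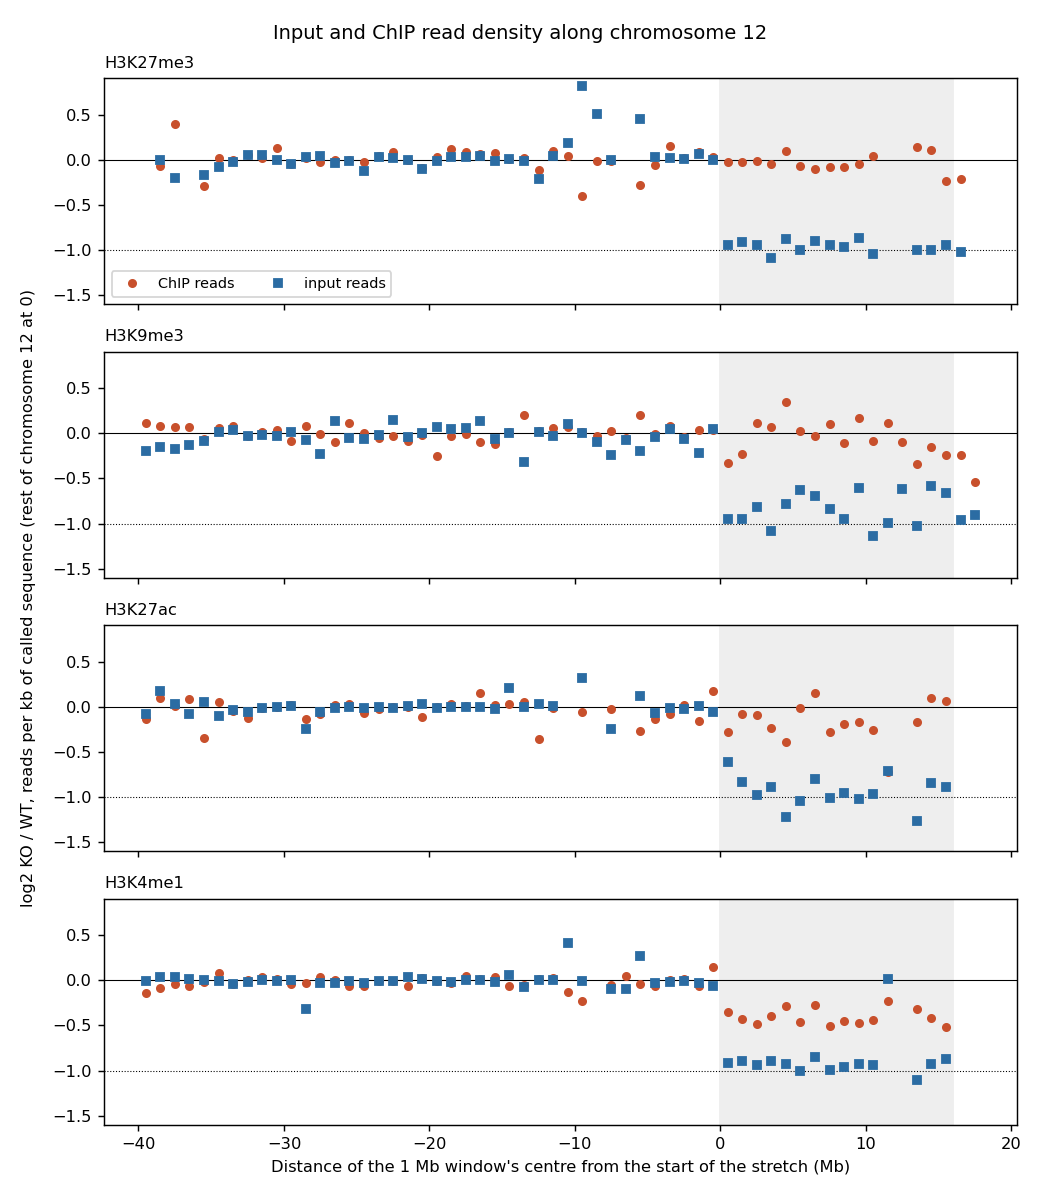
Input and ChIP reads per kb of called sequence in windows of 1 Mb along chromosome 12, as log2 IκBα-KO over IκBα-WT, against the distance in Mb from the first base of the stretch, for the 4 marks with counts, on the windows nearest to the stretch. The input drops to medians of −0.94 for H3K27me3 and −0.83 for H3K9me3 inside the shaded stretch while the ChIP reads stay nearer to 0, and windows with little called sequence scatter.

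Called sequence was shorter in the IκBα-KO libraries for every mark. H3K27me3 calls covered 2894, 3432 and 3421 kb in the IκBα-WT libraries and 835, 1017 and 795.8 kb in the IκBα-KO libraries. H3K9me3 calls covered 1244, 1202 and 1209 kb in IκBα-WT and 316, 246.6 and 296.4 kb in IκBα-KO. H3K4me3 calls, which are narrow, covered 146, 137 and 158 kb in IκBα-WT and 81.7, 99.9 and 107 kb in IκBα-KO. In each mark every IκBα-KO library lay below every IκBα-WT library. Set against the covered length of the rest of chromosome 12, the change in log2 was −2.08 for H3K27me3 (23.7% of IκBα-WT), −1.88 for H3K9me3 (27.2%) and −0.77 for H3K4me3 (58.8%), each with a two-sided exact permutation p of 0.1, the smallest that 3 against 3 libraries can give. For H3K27ac the 3415, 3365 and 3519 kb of IκBα-WT stood against 745.6, 703.8 and 723.4 kb in IκBα-KO. For H3K4me1 the values were 4348, 4386 and 4407 kb against 1651, 1633 and 1651 kb. These changes of −2.32 (20.0% of IκBα-WT) and −1.37 (38.7%) are given with no test, since the input of this experiment chose the stretch.

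**Figure D2:**
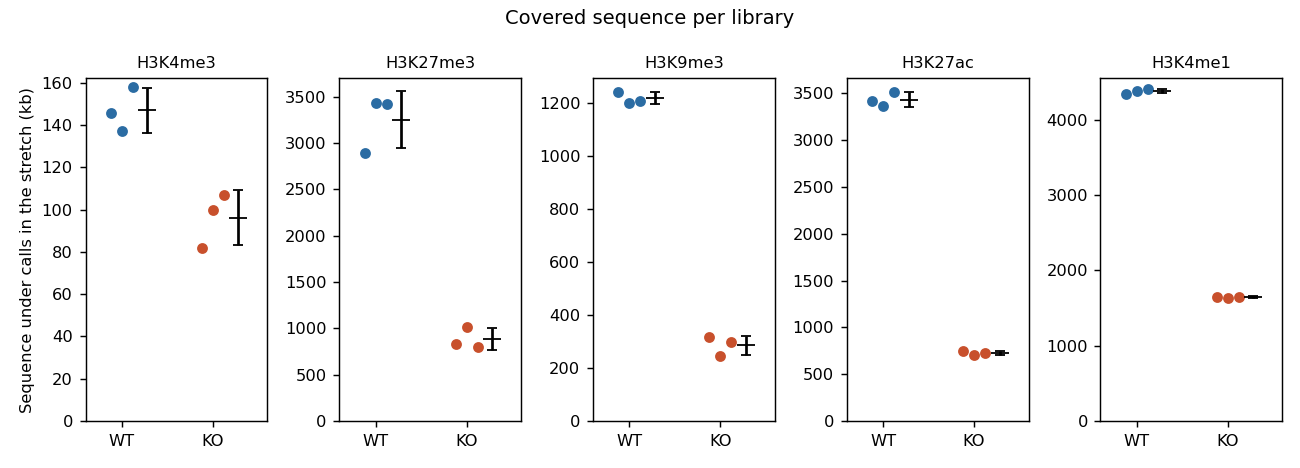
Kilobases of the stretch covered by calls in each library, on a linear axis from 0, with 1 panel per mark, points for the 3 IκBα-WT and 3 IκBα-KO libraries, short horizontal lines for their means and error bars for the SD. All IκBα-KO libraries lie below all IκBα-WT libraries in each of the 5 marks, with the smallest relative gap in H3K4me3.

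Calls were fewer as well. There were 568, 552 and 487 H3K27me3 calls in IκBα-WT and 133, 198 and 120 in IκBα-KO, and 324, 268 and 305 H3K9me3 calls against 114, 69 and 83. H3K4me3 had 194, 185 and 187 calls in IκBα-WT and 129, 157 and 164 in IκBα-KO. The groups did not overlap in any of these marks. Against the rest of the chromosome the log2 changes were −2.00, −1.55 and −0.46 (exact permutation p = 0.1 for each). H3K27ac had 466 to 529 calls in IκBα-WT and 136 to 152 in IκBα-KO, and H3K4me1 had 630 to 642 and 340 to 378.

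A library had 31600 to 135187 ChIP reads within H3K27me3 calls of the stretch. The ranges were 11058 to 65348 reads for H3K9me3, 36288 to 206251 for the H3K27ac libraries and 86461 to 322262 for those of H3K4me1. The H3K4me3 lists give no reads, so their depth is unknown. For H3K27me3 the density of ChIP reads in called sequence was 42.1, 39.4 and 39.5 reads per kb in IκBα-WT and 39.8, 39.2 and 39.7 in IκBα-KO, and for H3K9me3 it was 52.5, 46.3 and 45.7 against 53.2, 44.8 and 43.2. The groups overlapped in both. Against the rest of chromosome 12 the changes were 0.04 (exact permutation p = 0.3) and −0.03 (exact permutation p = 0.4). The same quantity was −0.07 for H3K27ac and −0.44 for H3K4me1, described with no test. These densities compare different sequence in the genotypes, because calls that were lost no longer count. On the bases called in all 6 libraries, 578.2 kb for H3K27me3, the density was 64.6, 64.9 and 66.0 reads per kb in IκBα-WT and 44.1, 47.2 and 42.3 in IκBα-KO. On the 188.6 kb called for H3K9me3 in all 6 it was 73.8, 66.4 and 67.4 against 58.2, 45.7 and 46.4. Here the groups no longer overlapped. The changes against the rest of the chromosome were −0.54 (68.6% of IκBα-WT) and −0.42 (74.9%), each with an exact permutation p of 0.1, beside input changes on the same bases of −0.96 and −0.75. For H3K27ac (468.6 kb) and H3K4me1 (1189 kb) the ChIP changes on common bases were −0.51 and −0.63, beside −0.99 and −0.96 in the input. On sequence that stayed called, the ChIP difference of all 4 marks with counts was smaller in size than the input difference of the same bases. This holds for a selected part only, since sequence whose calls were lost in IκBα-KO could not enter. Of the merged regions of these 4 marks called in all 3 IκBα-WT libraries, 22.3% (H3K27me3) to 39.3% (H3K4me1) were called in all 3 IκBα-KO libraries. Over the whole genome the share was 76.6% (H3K9me3) to 89.2% (H3K4me1). For H3K4me3 it was 72.4% in the stretch and 91.8% in the genome.

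Which regions stayed called went with how strong they were in IκBα-WT. Strength was the mean log2 ChIP over input that the lists give for a merged region called in all 3 IκBα-WT libraries, and a region was kept when all 3 IκBα-KO libraries called it. Of 184 H3K27me3 regions with a strength under 1, 4.89% were kept, against 82.5% of 361 in the rest of chromosome 12. Between 1.5 and 2 it was 87.0% of 23 regions, against 98.4% of 63. For H3K9me3, 0% of 45 regions under 1 were kept, against 34.3% of 99, and 66.7% of 39 between 2 and 3, against 89.7% of 378. H3K27ac kept 13.8% of 232 regions under 1 and 64.5% of 62 between 1 and 1.5, against 77.4% and 91.9% in the rest. H3K4me1 kept 16.8% of 185 and 49.2% of 256 in these classes, against 83.3% and 93.4%. For H3K4me3, by fold enrichment, 24% of 25 regions between 4 and 6 were kept, 73.1% of 52 between 6 and 10 and 94.9% of 39 between 10 and 15, against 75.3%, 95.6% and 99.3%. Within each mark the share kept was higher in each stronger class named, and stayed below that of the rest in the classes named. Classes of under 20 regions, such as the 13 H3K27ac regions between 1.5 and 2, are too thin to read.

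**Figure D3:**
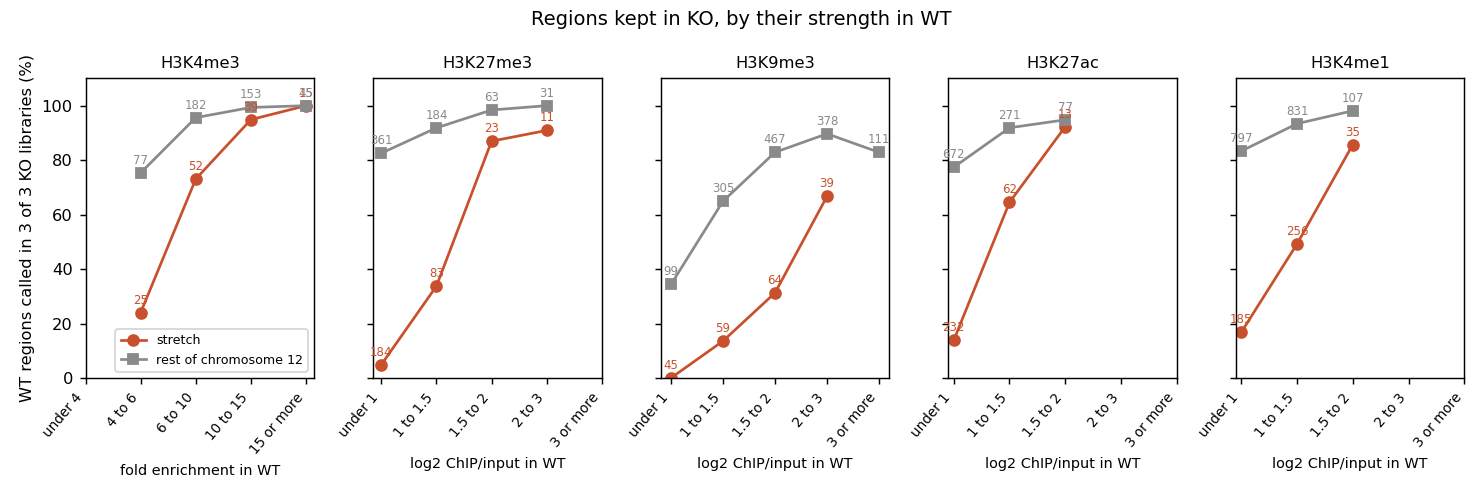
Share of merged regions called in all 3 IκBα-WT libraries that all 3 IκBα-KO libraries also called, in percent, by their strength in IκBα-WT (log2 ChIP over input, fold enrichment for H3K4me3), for the stretch and the rest of chromosome 12. Small numbers give the regions in a class, classes of under 10 regions are not drawn, and the stretch climbs from 4.89% to 87.0% in H3K27me3 between strengths under 1 and of 1.5 to 2.

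The sequence that stayed called differed from that lost in composition. For H3K27me3, kept sequence had 23.7 CG per kb and 53.4% GC, sequence called in 3 IκBα-WT and in no IκBα-KO library 14.4 CG per kb and 49.6% GC, and the whole stretch 10.6 CG per kb. In H3K4me3 the values were 91.6 and 60.6 CG per kb. H3K9me3 differed in repeats, with 47.5% of the kept bases soft-masked against 30.9% of the lost. In H3K27ac and H3K4me1 the contrast in CG was narrower, 21.9 against 16.6 and 17.9 against 15.0 per kb. The rest of chromosome 12 had contrasts of the same direction between kept and lost sequence, 75.3 against 51.7 CG per kb in H3K4me3, 16.9 against 14.7 in H3K27me3, and 52.6% against 42.6% soft-masked in H3K9me3. Strength and composition were not separated.

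The stretch holds 375 genes of GENCODE M21, of which 145 are protein-coding, 86 long non-coding and 144 immunoglobulin segments. Each gene was given its body plus 5000 bp upstream, so neighbours can share a call. For H3K27me3, 111 of the 173 genes with any call (64.2%) were covered over fewer bp in every IκBα-KO than in every IκBα-WT library, where 6.92% of all genes with a call in the genome were. The counts were 70 of 125 genes for H3K9me3 (56%, background 11.0%), 150 of 175 for H3K27ac (85.7%, background 7.74%), 161 of 185 for H3K4me1 (87.0%, background 14.6%) and 64 of 130 for H3K4me3 (49.2%, background 7.43%). No gene was covered over more bp without overlap in H3K27me3 (background 10.2%), H3K9me3 (background 4.42%), H3K27ac (background 18.5%) or H3K4me1 (background 9.93%), and 2 were in H3K4me3 (background 23.4%). Complete loss, from called in 3 IκBα-WT to called in 0 IκBα-KO libraries, met 39 of 132 H3K27me3 genes (background 1.76%), 38 of 75 H3K9me3 genes (background 3.51%), 57 of 160 H3K27ac genes (background 1.82%), 21 of 170 H3K4me1 genes (background 0.526%) and 5 of 114 H3K4me3 genes (background 0.5%). These 5 were Asb2, 1700127F24Rik, Gm266, Gm34785 and Gm40578, and the Gm266 and Gm40578 windows share a single region. They were named after their values were seen.

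Input was lower at nearly every gene. On bases called in all 6 libraries, the input of 48 of 48 genes with enough reads was below −0.5 in the H3K27me3 experiment, from −1.41 at Gm5441 to −0.54 at Gm26583, against 0 of 227 genes in the rest of the chromosome. In the H3K9me3 experiment it was 11 of 11, from −1.45 at Ighv8-2 to −0.71 at Rtl1, against 2 of 132. In the shared input it was 54 of 55 over H3K27ac, with Ddx24 at −0.45 the exception, and 115 of 117 over H3K4me1, where Gm266 was highest at −0.36. The ChIP change of the same genes ran from −0.99 at Exoc3l4 to 0.03 at Ckb in H3K27me3 and from −0.93 at Cdc42bpb to 0.49 at Yy1 in H3K27ac, in both a wider range than the input's. In H3K9me3, from −0.65 to −0.17, and in H3K4me1, from −0.96 to 0.00, the range was no wider than that of the input. Pearson's r between the 2 changes across genes was 0.03 over the 48 H3K27me3 genes, 0.35 over the 11 H3K9me3 genes, −0.15 over the 55 H3K27ac genes and 0.15 over the 117 H3K4me1 genes, a description over genes that share libraries.

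Gene levels were compared with edgeR's quasi-likelihood test on ChIP reads with the covered length as offset, over all genes covered in all 6 libraries, with Benjamini-Hochberg adjusted p under 0.05. Of 65 H3K27me3 genes in the stretch, 20 fell (background 0.79%) and 1 rose (background 1.0%), with a median log2 change of −0.43. Of 22 H3K9me3 genes, 2 fell (background 0.476%), 0 rose (background 0.308%; 1 at an unadjusted p under 0.05, 0 by DESeq2), and the median was −0.41. Leaving out any 1 of the 6 libraries took the 2 H3K9me3 falls to 0. These medians lie above those of the input, but genes that lost their calls in any IκBα-KO library were not tested. When the null was a gene that follows the input of the stretch in the mark's own experiment, 37 of 65 H3K27me3 genes (background 1.36%) and 4 of 22 H3K9me3 genes (background 0.364%) stood above it, and 0 below in either mark (background 0.691% and 0.448%; 0 at an unadjusted p under 0.05 and 0 by DESeq2). In this and the later fits with a shift, only genes or regions of the stretch were shifted. All others were tested against no change, and the backgrounds are shares of everything tested, the stretch included. For H3K27ac, 34 of 79 genes fell (background 2.25%), median −0.26, and 66 stood above the input (background 6.81%). For H3K4me1, 110 of 135 genes fell (background 2.01%), median −0.58, and 89 stood above the input (background 5.26%). By edgeR, 0 genes of these last 2 marks rose (background 6.41% and 4.88%; 2 and 0 at an unadjusted p under 0.05) or stood below the input (background 2.12% and 1.49%; 0 and 0), DESeq2 also gave 0, and all their counts are a description.

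In 3 of the 4 marks, genes that kept their covered length had the lower median change. In H3K27me3 the median change was −0.62 over 17 genes with at least 0.8 of the IκBα-WT length, −0.45 over 18 genes with 0.5 to 0.8 and −0.23 over 30 genes below 0.5. In H3K4me1 it was −0.74, −0.64 and −0.41 over 17, 47 and 71 genes, and in H3K27ac −0.59, −0.47 and −0.19 over 7, 15 and 57. H3K9me3 did not show this order, with −0.28, −0.41 and −0.27 over 2, 10 and 10 genes. Across the genes, Pearson's r between the log2 change in covered length and the change in reads per kb was −0.69 over 65 H3K27me3 genes, −0.34 over 22 H3K9me3 genes, −0.53 over 79 H3K27ac genes and −0.61 over 135 H3K4me1 genes, a description over genes that share libraries. A read of a call was shared out evenly along it, so a wide IκBα-WT call lowers its own density, and the part of this in the changes was measured only by the common bases, where the genes below 0.5 had medians of −0.44 in H3K27me3 and −0.52 in H3K4me1.

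The genes that departed most from their neighbours were found by another null, the median change of the tested genes of the stretch. In H3K27me3, 3 genes stood below it (background 0.617%) and 2 above (background 0.979%). Exoc3l4, a member of the exocyst-related family, had 116, 139 and 138 scaled ChIP reads per covered kb in IκBα-WT and 62.3, 68.5 and 65.5 in IκBα-KO, a change of −1.0 (0.57 below the median, SE 0.08, adjusted p = 0.00828). Its departure from the input of the stretch was −0.06 (adjusted p = 0.799). All 14478 bp of its window were called in all 6 libraries. Gm10425 lies in the same calls.

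**Figure D4:**
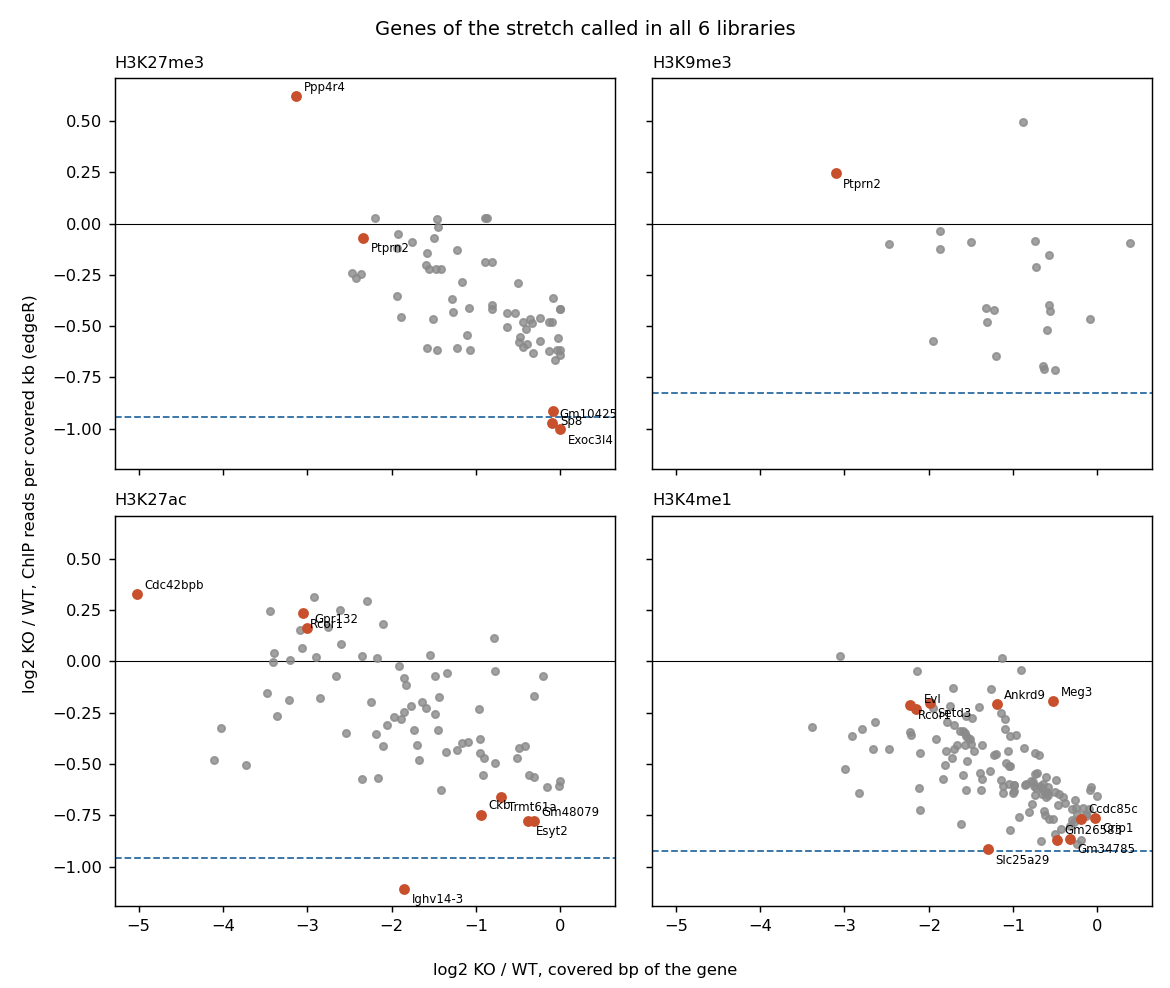
Change in ChIP reads per covered kb (vertical axis, edgeR) against change in covered bp (horizontal axis), both log2 IκBα-KO over IκBα-WT, for the genes of the stretch called in all 6 libraries, with 1 panel per mark. The dashed line is the median input change of the mark's experiment and coloured points are the genes past the test against their neighbours, without overlap between genotypes, that departed most. In H3K27me3, Exoc3l4, Gm10425 and Sp8 lie at the dashed line and Ppp4r4 at 0.62, while most genes lie between the line and 0.

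Sp8, a zinc finger transcription factor of limb and forebrain development, had 68.5, 84.5 and 85.8 H3K27me3 reads per covered kb in IκBα-WT and 41.1, 42.6 and 43.0 in IκBα-KO (−0.91, SE 0.10, adjusted p of its level = 0.00176). Against its neighbours the adjusted p was 0.0494, and against the input it was 0.922. Most libraries of both genotypes covered its whole window. The departure of Exoc3l4 from its neighbours held with each library left out and under the other settings that gave a value, and that of Sp8 passed with 1 of the 6 libraries left out.

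Ppp4r4, a regulatory subunit of protein phosphatase 4, went the other way, with 39.4, 36.8 and 40.7 H3K27me3 reads per covered kb in IκBα-WT and 62.9, 62.6 and 54.3 in IκBα-KO (0.62, adjusted p = 0.0179). Calls covered 11600, 15600 and 13000 bp at Ppp4r4 in IκBα-WT and 1600, 1400 and 1600 bp in IκBα-KO, so the rise was measured over a remnant of the called sequence. It was lost on common bases (0.23, adjusted p = 0.403), and by edgeR no H3K27me3 gene rose with the promoter window, or with IκBα-WT replicate 1 or 2 or IκBα-KO replicate 1 or 2 left out. Its departure from the neighbours held under every setting that gave a value. Ptprn2, which encodes a protein of dense-core vesicles, had 37.9 to 39.5 and 36.1 to 37.7 reads per covered kb in IκBα-WT and IκBα-KO, while its H3K27me3 length was 205249, 264249 and 244449 bp against 46849, 45200 and 49600 bp. On common bases its H3K27me3 stood 0.10 above the median (adjusted p = 0.498). It was also the only H3K9me3 gene that departed from its neighbours (0.65 above them, SE 0.11, adjusted p = 0.0268, background 0.322%), with 36.9, 39.5 and 37.6 reads per covered kb against 47.0, 45.2 and 41.7, a departure that passed with 1 of the 6 libraries left out. H3K9me3 calls covered 22800, 15600 and 20000 bp there in IκBα-WT and 3600, 1600 and 1600 bp in IκBα-KO. On common bases the departure did not hold, and the level was 0.09 (edgeR adjusted p = 0.84).

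In H3K27ac, 11 genes stood below the median of their neighbours (background 2.11%) and 7 above (background 6.41%). Ckb, the brain-type creatine kinase, had 69.6, 69.6 and 72.5 reads per covered kb in IκBα-WT and 41.3, 44.5 and 39.8 in IκBα-KO (−0.75). Ighv14-3 (−1.11), Trmt61a, which encodes a tRNA methyltransferase (−0.66), and Esyt2, which encodes a membrane tether (−0.78), also fell, the last over the same calls as Gm48079. At Ighv14-3 calls covered 2521, 3721 and 3721 bp in IκBα-WT and only 1521, 121 and 1121 bp in IκBα-KO. Above the median, among genes whose genotypes did not overlap, stood Cdc42bpb, a kinase acting with the small GTPase Cdc42, with 51.0, 49.8 and 53.3 against 64.3, 76.8 and 54.4, Rcor1, a co-repressor of the LSD1 complex, with 54.1, 57.4 and 51.2 against 61.6, 60.5 and 70.1, and Gpr132, a G protein-coupled receptor. Calls covered 72625, 70225 and 70425 bp at Cdc42bpb in IκBα-WT and 2000, 1800 and 2800 bp in IκBα-KO. On common bases Cdc42bpb and Gpr132 turned to the other side of the median, at −0.48 and −0.19. The departure of Rcor1, where IκBα-KO calls covered 12.1% of the IκBα-WT length, did not hold there either. Nor did those of Ckb, Trmt61a and Esyt2 below the median, and Ighv14-3 had no value on common bases.

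In H3K4me1, 8 genes stood below the median (background 1.45%) and 22 above (background 4.9%). Ccdc85c had 86.2, 90.7 and 92.8 reads per covered kb in IκBα-WT and 51.5, 53.1 and 53.8 in IκBα-KO (−0.77, SE of the departure 0.03, adjusted p = 0.00483), with 87.5% of its length still called. Slc25a29, a mitochondrial carrier, fell by 0.92, Gm26583 by 0.87, Gm34785 by 0.86 and Crip1 by 0.76 on the log2 scale. The departures of Ccdc85c and Slc25a29 below the median passed with each library left out, and that of Gm34785 with 2 of the 6. Those of Gm26583 and Crip1 passed with 0 of the 6 and missed the threshold by DESeq2. Meg3 had 60.5, 57.8 and 61.6 reads per covered kb in IκBα-WT and 54.2, 51.5 and 51.5 in IκBα-KO (−0.19, adjusted p of its level = 0.0401), 0.38 above the median of its neighbours (adjusted p = 8.19e-04). Setd3 (−0.20), a histidine methyltransferase of actin, Ankrd9 (−0.21), Rcor1 (−0.21) and Evl (−0.23), an actin regulator, were the next above the median among the genes whose genotypes did not overlap. Calls in IκBα-KO covered 21.5% of the IκBα-WT length at Rcor1, 22.6% at Evl, 25.3% at Setd3 and 43.8% at Ankrd9. On common bases the departures of Rcor1 and Evl did not hold, with levels of −0.49 and −0.51, while those of Setd3 and Ankrd9 did. The departure of Crip1 below the median did not hold there either. Genes with overlap stood higher, up to Pacs2 at 0.02.

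Regions called over a like length in all 6 libraries are less touched by changes in length. There were 10 such merged regions in the stretch with the shortest length at least 0.8 of the longest, 4 of them in H3K27me3. Their reads were summed with no correction for length, so a difference within that margin remains in the values. The H3K27me3 region 110247601 to 110287600 over Dio3 and its antisense gene had 3340, 3395 and 3335 scaled ChIP reads in IκBα-WT and 1709, 1702 and 1654 in IκBα-KO (−0.99 ± 0.04 SE, edgeR adjusted p = 1.85e-64), and its departure from the input was −0.05 (adjusted p = 0.413). The region of 16.4 kb over Exoc3l4 and Gm10425 fell by 1.09 on the log2 scale, 0.15 below the input (adjusted p = 0.00907), beside −1.0 for Exoc3l4 per covered kb and −1.02 on its common bases. The region of 66.2 kb over Dlk1 had 3507, 3550 and 3589 reads in IκBα-WT and 2074, 2135 and 2067 in IκBα-KO (−0.76), 0.18 above the input (adjusted p = 7.69e-05), and its neighbour of 7.2 kb fell by 0.54. All 4 regions fell, where 19.3% of 2025 such regions in the genome did and 15.8% rose. Against the median input change of the stretch 2 stood above (background 15.9%) and 1 below (background 19.2%). At the Dio3 region alone the test did not tell the change from that median. At Exoc3l4 and Dio3 the totals lay below that median, and this direction did not hold per base. On bases called in all 6 libraries, the Exoc3l4 gene window had an input change of −1.02 beside −0.99 in ChIP. The Dio3 gene window had −1.11 beside −0.41. The Dlk1 gene window had −0.73 beside −0.35, the same direction as its region. These windows are narrower than the regions, and the differences were not tested.

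In H3K4me1 the like-length regions over Glrx5 (−0.97), Hhipl1 (−1.01), Ppp2r5c (−1.0) and Apopt1 (−1.07) had IκBα-KO ChIP reads at 47.6% to 51.0% of IκBα-WT (all 4 fell, background 20.0%, with 23.4% higher). Their departures from the input ran from −0.15 to −0.05, and by region totals 1 of them, at Ppp2r5c, stood below it (background 19.9%, with 23.4% above). This direction did not hold per base. On the bases called in all 6 libraries the Ppp2r5c window had a ChIP change of −0.81 beside −1.0 in its input. Per covered kb the gene lay 0.28 above the input, which is given as a description only. The H3K27ac region of 85.2 kb over Ppp2r5c, which encodes a regulatory subunit of protein phosphatase 2A, had 9786, 10060 and 10216 reads in IκBα-WT and 5539, 5439 and 5449 in IκBα-KO (−0.87, background 26.5% lower and 26.4% higher), 0.09 above the input (background 26.4%, with 26.5% below). Both marks belong to the experiment whose input chose the stretch. The single H3K9me3 region of 200 bp, whose sequence is shown above, had 47.3, 58.7 and 50.6 reads in IκBα-WT and 49.6, 54.6 and 56.4 in IκBα-KO (0.04 ± 0.17 SE, adjusted p = 0.926, background 7.38% lower and 6.91% higher). It stood 0.86 above the input of the stretch (adjusted p = 0.00209, background 6.94%, with 7.41% below). Its own input, 12 unscaled reads in IκBα-WT and 23 in IκBα-KO, is too small to read a change from.

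H3K4me3 lists give no counts, only a fold enrichment at the summit over the peak caller's background. Its test was therefore limma on log2 fold enrichment in regions called in all 6 libraries. Of 97 such regions in the stretch, 12 fell (background 5.68%) and 2 rose (background 9.96%), and the median change was −0.23 against 0.07 in the rest of the genome. The region near Gm33682 had a fold enrichment of 10.1, 9.14 and 9.70 in IκBα-WT and 3.48, 7.12 and 4.77 in IκBα-KO (−0.97 ± 0.24 SE, adjusted p = 0.00972). The regions over exons of Ppp4r4 (15.0 ± 2.92 against 8.31 ± 2.36, SD, n = 3, −0.87) and Ppp2r5c (13.1 ± 3.21 against 7.11 ± 0.417, SD, n = 3, −0.85) followed. The other regions that fell lay at or nearest to Zbtb42, Rcor1, Ddx24, Cdc42bpb, Vrk1, a kinase of proliferating cells, Brf1, a subunit of the RNA polymerase III machinery, Mta1, of the NuRD complex, Ccnk, a cyclin, and Yy1, a zinc finger architectural factor, with changes from −0.85 to −0.65, and the groups overlapped at Cdc42bpb.

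Of the 2 rising regions, one covered chr12:109527695-109528626, 12.4 kb upstream of the 5′ end of Meg3 and nearest to Gm34081. Its fold enrichment was 3.22, 3.52 and 3.16 in IκBα-WT and 6.32, 6.80 and 7.77 in IκBα-KO (1.07 ± 0.21 SE, adjusted p = 0.00213). All IκBα-KO libraries exceeded all IκBα-WT libraries. The calls there were also wider in IκBα-KO, 807, 872 and 862 bp against 784, 508 and 478 bp. The other, over Cinp and Tecpr2, had 8.30, 7.5 and 8.87 in IκBα-WT and 11.1, 11.8 and 18.0 in IκBα-KO (0.70 ± 0.22 SE, adjusted p = 0.0385). The rise near Meg3 passed with each library left out, and that over Cinp and Tecpr2 with 1 of the 6. Fold enrichment has the peak caller's background in its denominator, which need not be the local input. In IκBα-KO replicate 1 the same value, 11.056, recurred at Rcor1 and over Cinp and Tecpr2. The part of the lowered input in these values was not tested.

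**Figure D5:**
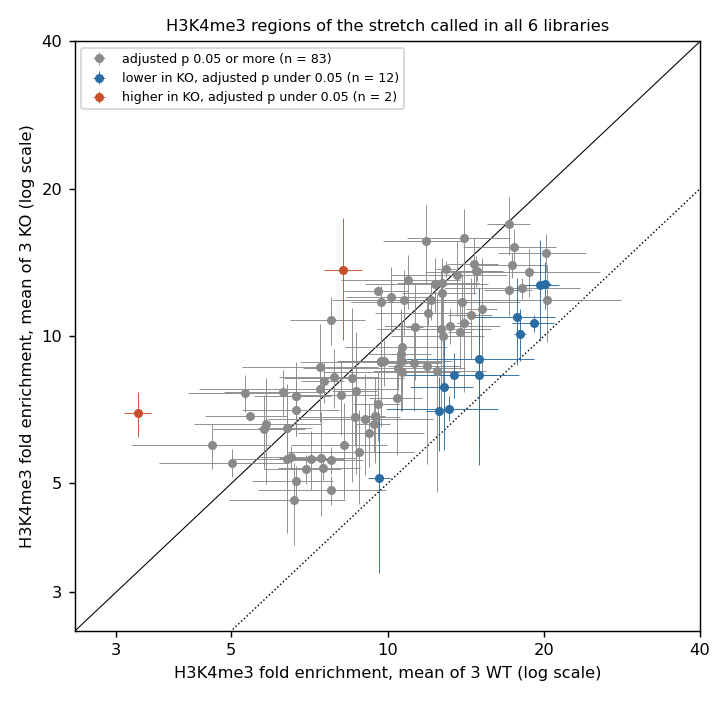
Mean H3K4me3 fold enrichment in the 3 IκBα-KO libraries (vertical log axis) against that in the 3 IκBα-WT libraries (horizontal log axis) for the 97 regions of the stretch called in all 6, with error bars of SD. The solid line marks equal values and the dotted line marks IκBα-KO at 0.5 of IκBα-WT. The 12 falling regions lie between the lines or at the dotted line, and the region upstream of Meg3, at a mean of 3.30 against 6.96, is the leftmost of the 2 rising ones.

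Regions called in all libraries of one genotype and none of the other were nearly all restricted to IκBα-WT. There were 167 of 553 merged H3K27me3 regions (background 1.32%), 113 of 372 H3K9me3 regions (background 2.58%), 188 of 469 H3K27ac regions (background 3.62%), 223 of 594 H3K4me1 regions (background 2.09%) and 9 of 209 H3K4me3 regions (background 0.743%). Restriction to IκBα-KO met 1 H3K4me3 region (background 3.12%) and none in the other marks (background 1.8%, 0.427%, 1.35% and 1.49% for H3K27me3, H3K9me3, H3K27ac and H3K4me1). The widest IκBα-WT-restricted H3K9me3 region, 109519201 to 109548000, lay over the 5′ end of Meg3 and covered 24200, 26000 and 27800 bp in IκBα-WT, at 51.2 to 62.3 ChIP reads per kb. It spans the H3K4me3 region that rose. The next, 103721201 to 103736800, lay at Serpina1b, which encodes a protease inhibitor of plasma.

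The widest lost H3K27me3 regions were 103178401 to 103200400 over Unc79 and Prima1 (14000, 19000 and 20200 bp in IκBα-WT) and 112271001 to 112296400, intergenic (17800, 17600 and 14600 bp). Lost H3K27ac was widest inside Cdc42bpb at 111301401 to 111343800 (39600, 36600 and 33800 bp) and at 118640801 to 118663000 (22000, 22000 and 21000 bp). For H3K4me1 it was widest at Pacs2, 113023001 to 113046200 (22000, 18000 and 20200 bp), and at Rcor1, 111106401 to 111121800 (6600, 9000 and 15400 bp). By strength these widest H3K4me1 regions ranked 466 and 471 of 476, and the widest H3K9me3 regions ranked 81 and 62 of 212. The strongest lost regions ranked 5 of 476 in H3K4me1, at Serpina3i, and 7 of 212 in H3K9me3, next to Serpina1a.

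In the imprinted domain, all 7 genes listed (Dlk1, Meg3, Rtl1, Rian, Mirg, Dio3 and Begain) were covered over fewer bp by H3K27ac and by H3K4me1 in every IκBα-KO library, as were 85.7% and 87.0% of all genes of the stretch with a call. H3K27ac disappeared from 4 of these 7, Dlk1 (11914, 4578 and 7578 bp in IκBα-WT), Dio3 (4497, 4097 and 6097 bp), Begain and Mirg. In the whole stretch it disappeared from 57 of the 160 genes called in all 3 IκBα-WT libraries (35.6%). H3K27me3 was retained over Dlk1, a Notch-like growth regulator (15514 bp in each IκBα-WT library, 14714, 14714 and 14514 bp in IκBα-KO), over Dio3, the deiodinase that inactivates thyroid hormone (7030 bp in all 6), and over Begain. It was lost from Rian (8000, 8200 and 13200 bp to 0). At Meg3, H3K9me3 went from 16126, 26926 and 20926 bp to 0, while H3K4me3 covered 1377, 1472 and 1528 bp in IκBα-WT and 1536, 1857 and 1647 bp in IκBα-KO, more in every IκBα-KO library. H3K27ac at Meg3 stood 0.37 above the median of its neighbours (adjusted p = 0.0115). Of 3 genes tested for H3K27me3, Begain fell (−0.66 ± 0.06 SE, adjusted p = 6.02e-04). The gene windows of Dio3 (−0.42, adjusted p = 0.152) and Dlk1 (−0.36, adjusted p = 0.0672) did not pass the test by edgeR, while the wider H3K27me3 regions that contain them fell, as given above. On common bases Dlk1 passed (−0.38, adjusted p = 0.0415) and Dio3 did not (−0.43, adjusted p = 0.105).

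Among 10 developmental regulators of the stretch, H3K27me3 was called in all 3 IκBα-WT libraries at 9 and still in all IκBα-KO libraries at 8, with 7 covered over fewer bp in every IκBα-KO library (64.2% of all genes of the stretch with a call). Gsc, the homeobox gene Goosecoid, kept 7122 bp in all 6 libraries, and its level fell by 0.62 on the log2 scale (adjusted p = 0.0233). Bcl11b, a T-cell and neuronal transcription factor, had 85400, 88000 and 83200 bp in IκBα-WT and 48202, 49602 and 48800 bp in IκBα-KO, with a level of −0.40 (adjusted p = 0.0025). Jag2, a Notch ligand, went from 19776, 21400 and 19358 bp to 14000, 17800 and 11000 bp. Of the 8 tested for H3K27me3, 3 fell, 5 stood above the input and none below, beside 20 and 37 of all 65 tested genes of the stretch. H3K27ac disappeared from Sp8 (8872, 8872 and 7248 bp in IκBα-WT), and the level of H3K4me1 fell at 7 of 8 tested, as it did at 110 of the 135 tested in the stretch. These shares are near those of the stretch.

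The pluripotency and chromatin list had 13 members in the stretch. H3K4me3 was called at 7 of them in all 6 libraries, and 2 of the 8 with any call were covered over fewer bp in every IκBα-KO library (49.2% in the stretch). Yy1 had 3207, 3109 and 3307 bp in IκBα-WT and 2703, 2597 and 2938 bp in IκBα-KO. Dicer1, the microRNA-processing nuclease, Setd3, Rcor1 and Ncapg2, a condensin subunit, had overlapping H3K4me3 lengths. H3K27ac was narrower without overlap at all 8 called (85.7% in the stretch), as at Yy1 (26948, 26948 and 28148 bp to 4200, 3200 and 9400 bp) and Dicer1 (48611, 53411 and 50411 bp to 12800, 8952 and 10552 bp). Tcl1, an AKT co-activator of naïve stem cells, kept more of its H3K27ac (11044 bp in each IκBα-WT library, 10051, 6400 and 10200 bp in IκBα-KO). H3K9me3 fell in level at the 2 genes tested, Ncapg2 (−0.71) and the zinc finger gene Zfp386 (−0.65), with adjusted p of 0.772 and 0.59 for a departure from the input.

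Of 8 genes of NF-κB and interferon signalling, H3K27ac and H3K4me1 were narrower without overlap at the 5 called, where 85.7% and 87.0% of the genes of the stretch were. Hsp90aa1, the inducible chaperone, lost the least H3K27ac length (16124, 17124 and 17124 bp to 14724, 15724 and 14724 bp), and its H3K27ac level was −0.61 (adjusted p = 0.0013). Traf3, a brake on non-canonical NF-κB signalling, had 47353, 40184 and 41984 bp of H3K27ac in IκBα-WT and 2200, 4000 and 0 bp in IκBα-KO. Tnfaip2, a gene induced by tumour necrosis factor, kept its H3K27me3 (17550 bp in each IκBα-WT library, 16750, 17550 and 17550 bp in IκBα-KO) at a level of −0.56 (adjusted p = 0.0167) and had no H3K27ac call in IκBα-KO. The level of Akt1, a survival kinase, was −0.55 in H3K27me3 (adjusted p = 0.0206). The interferon genes Ifi27, Ifi27l2a and Ifi27l2b carried only scattered H3K27me3 calls in IκBα-WT and none in IκBα-KO.

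The serpin cluster and the immunoglobulin segments carried few active marks, with no H3K4me3 call at any of their 23 and 144 members. H3K9me3 was called in all 3 IκBα-WT libraries at 10 serpin genes, all of them covered over fewer bp in every IκBα-KO library. That is 10 of the 13 with any H3K9me3 call, beside 56% in the stretch. Serpina1b went from 45245, 39845 and 38018 bp to 7200, 5400 and 9600 bp, and Serpina3m from 12800, 10600 and 11800 bp to 8000, 5400 and 9800 bp. Among the 16 immunoglobulin segments called in all IκBα-WT libraries, 13 were covered less (of 33 with any call) and 5 stayed called in all IκBα-KO libraries. Ighv1-67 stayed almost complete (5061 bp in each IκBα-WT library, 5000, 4261 and 5061 bp in IκBα-KO). Segments of this family are near copies of each other, so their values are uncertain. The methods describe the removal of reads of more than one mapping place, but do not name H3K9me3.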

How the data were processed

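The authors trimmed reads with Trim Galore (0.6.6), aligned those of H3K4me3, H3K27me3 and H3K4me1 to GRCm38 with Bowtie2 (2.4.4), and removed multimapping reads and blacklisted sequence. Regions were called per library against the genotype's input, with MACS2 (2.2.7.1) for H3K4me3 and SICER as epic2 (0.0.52) for H3K27me3, H3K27ac and H3K4me1, as the submitters' notes and the study's methods give them. The aligner of H3K27ac and the processing of H3K9me3 are not given in the sources used here, and the H3K9me3 lists have the columns of epic2. The deposited lists of these 4 marks hold the count of ChIP and input reads per call, the log2 of ChIP over input, a p-value and an FDR under 0.05. The deposited H3K4me3 lists hold fold enrichment (a ratio) and −log10 p and q-values. The score columns the authors deposited were not used.

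Reads of a call were shared out by overlapping bp over genes of GENCODE M21 (body plus 5000 bp upstream). Genes covered in all 6 libraries, over at least 1000 bp on average, were tested with edgeR 4.0.16 (quasi-likelihood, TMM, covered length as offset) in R 4.3.3, with the KO offsets of the stretch shifted by its input change or its median ChIP change for the other nulls, and H3K4me3 with limma 3.58.1, without a pseudocount, all with Benjamini-Hochberg adjustment. Stretch totals were compared by two-sided exact permutation over 20 assignments. In data simulated for all genes tested, edgeR recovered 59% to 65% of changes of 0.5 and 98% to 100% of changes of 1 on the log2 scale, and limma 5% and 77%. The members, gene lists and bounds were chosen with earlier results of these data known. Named genes were up to 5 per mark and direction with the largest departure from their neighbours and no overlap between genotypes, up to 2 widest genotype-restricted regions, up to 3 H3K4me3 regions per direction and the gene lists given. The replicates share only a number: same-numbered libraries deviated together with correlations of −0.01 to 0.07.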

Additional observations from a re-analysis of the deposited data

How the results depend on the processing

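Of 776 recomputations of 78 results, 581 kept their direction and their side of the threshold (a count within 1.5 times, a value within 1 SD), 101 kept the direction but missed the threshold, 88 moved further and 6 reversed. The causes were not tested, except that a shorter gene window or fewer bases leaves fewer reads and genes. The results at 4 places held under every setting that gave a value, H3K27me3 at Exoc3l4 and Ppp4r4, H3K4me1 at Meg3 and the H3K4me3 region upstream of Meg3. With the bases called in all 6 libraries, the H3K27me3 ChIP density of the stretch reversed to −0.54, and H3K27ac and H3K4me1 moved to −0.51 and −0.63. With the other autosomes as reference H3K27ac was −0.093 and H3K4me1 −0.46, and H3K4me1 covered length was −1.40. A promoter window reversed H3K27me3 at Ptprn2 (−0.19), H3K27ac at Cdc42bpb (−0.57) and H3K4me1 at Rcor1 (−0.13), and common bases reversed H3K27ac at Cdc42bpb (−0.48) and Gpr132 (−0.19). An overlap of at least 200 bp gave 2 IκBα-KO-restricted H3K4me3 regions.

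The numbers of genes called in the stretch for level, departure from the input and departure from the median were as follows. With the promoter window H3K27me3 gave 6 and 0 for the departures, H3K9me3 1, 0 and 0, H3K27ac 15, 21 and 3, and H3K4me1 64, 18 and 2. With common bases H3K27me3 gave 24 genes apart from the input, H3K9me3 gave 5 for level and 0 apart from the median, and H3K27ac and H3K4me1 gave 5 and 15 apart from the median. DESeq2 gave 6, 9 and 2 for H3K9me3. Merged regions without the length limit and with length as offset gave 37, 9, 44 and 139 called for level in H3K27me3, H3K9me3, H3K27ac and H3K4me1, and 49, 7, 77 and 122 apart from the input. The numbers of the replicates did not pair the samples. With the replicate block H3K9me3 gave 0, 2 and 0 genes, and no other count moved by over 1.5 times. Under the block, H3K27me3 at Sp8 (adjusted p = 0.0675 by edgeR), H3K9me3 at Ptprn2, H3K27ac at Gm48079, Esyt2, Trmt61a and Gpr132 and H3K4me1 at Gm26583 and Crip1 missed the threshold against their neighbours, and the rise of H3K27me3 at Ppp4r4 was lost. The number of libraries that correlated best with their own number was 2 of 3 for H3K27me3, 1 of 3 for H3K9me3 and H3K4me1 and 0 of 3 for H3K27ac and H3K4me3.

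With each library left out in turn, H3K4me3 had 10 to 17 IκBα-WT-restricted regions, where all 6 gave 9, with 14, 15 and 17 when IκBα-WT replicate 1, 2 or 3 was left out and 17 when IκBα-KO replicate 3 was, and H3K27me3 and H3K9me3 had 0 to 1 IκBα-KO-restricted regions, 1 without IκBα-WT replicate 2 for H3K27me3 and without IκBα-KO replicate 2 or 3 for H3K9me3. Genes called for level, apart from the input and apart from the median were 10 to 16, 24 to 32 and 3 to 5 in H3K27me3, 0 to 0, 2 to 4 and 0 to 1 in H3K9me3, 21 to 28 for level and 9 to 14 apart from the median in H3K27ac, and 15 to 20 apart from the median in H3K4me1. Like-length regions called were 0 to 1 for level and 1 to 2 apart from the input in H3K9me3, and 4 to 10 and 1 to 2 in H3K4me1. The H3K4me3 regions past limma's threshold were 6 to 13. The counts that moved by over 1.5 times were, for H3K27me3, level without WT2 or KO2 (10) or KO3 (13), input without WT1 (24) and median without WT2, WT3, KO1 or KO3 (3), where WT2 stands for IκBα-WT replicate 2 and so on. For H3K9me3 they were level whichever library was left out (0), input without WT1, WT2, WT3 or KO1 (2), median whichever was left out but KO2 (0), and regions without WT1 or KO3 (1, and 2 for input without WT2). For H3K27ac they were level without WT1 (22) or KO1 (21) and median without WT1 (10) or WT3 (9). For H3K4me1 they were median without WT1, KO1 or KO3 (18) or WT3 or KO2 (15), and regions without KO1 (7) or KO3 (10, and 2 for input without WT3, KO1, KO2 or KO3). For H3K4me3 they were WT1 (8), WT3 (6), KO1 (9) and KO2 (7). Of the 24 departures of named genes, 11 passed with each library left out, as did 1 of the 5 named H3K4me3 regions. Each p-value rests on 3 clones per genotype, and edgeR, DESeq2 and limma estimate the spread in part from all features tested. Input values rest on 1 library per genotype and experiment. The input shift entered the tests as a fixed value, so its own error is not in their p-values. The H3K27ac antibody differs between the labels and the study's methods.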
